A study of Arabidopsis thaliana with 8 samples.

Results

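The cellulose synthase (CESA) and cellulose synthase-like (CSL) genes of Arabidopsis thaliana encode membrane-bound glycosyltransferases that build the backbones of wall polysaccharides. The 40 genes described were CESA1 to CESA10 and the CSLA, CSLB, CSLC, CSLD, CSLE and CSLG genes, chosen by locus identifier from a table of 28775 genes. Of these, 38 had reads in both treatment groups. The other two, CSLB5 and CSLB6, are described with their subfamily.

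The RNA came from floral buds of mixed stages of L er plants, a laboratory strain with the erecta mutation. All plants, the controls included, carried 35S:GR-RBE, in which the constitutive viral 35S promoter drives the zinc-finger repressor RABBIT EARS (RBE) fused to the hormone-binding part of the glucocorticoid receptor. Such a fusion is held outside the nucleus until a steroid is given, and the promoter drives it in far more cells than the petal primordia where RBE is normally expressed. The series was made to find genes downstream of RBE. Growth was at 22 °C under a cycle of 16 h light and 8 h dark, and plant age was not given. The DEX group received 10 µM dexamethasone with 0.1% ethanol and 0.015% silwet for 4 h, and the mock group received the same solution without the steroid. Each group had 2 biological replicates with 2 technical replicates each, 8 libraries in all, but the deposited values were pooled to 1 value per gene and group. No difference below therefore has a replicate check or a test, and no comparison of steroid against solvent in plants without the transgene was analysed here.

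CESA proteins assemble into rosettes at the plasma membrane and spin glucan chains into cellulose microfibrils. CESA1, CESA3 and CESA6 form the complex of growing primary walls, CESA2, CESA5 and CESA9 can stand in for CESA6, and CESA4, CESA7 and CESA8 form the complex of secondary walls. In the Golgi apparatus CSLA enzymes make the backbone of mannan and CSLC enzymes that of xyloglucan. CSLD enzymes serve tip-growing and dividing cells, and the substrates of the CSLB, CSLE and CSLG enzymes in Arabidopsis are less well known.

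The family label was checked on sequence. Each of the 40 genes encodes a glutamine, any pair of residues, arginine and tryptophan in this order, the QXXRW motif that lines the catalytic pocket. The predicted proteins ranged from 520 residues in the CSLA group to 1181 in the CSLD group. Only CSLE1 had more than 1 match, and the later one is shown. The windows below are 45 bases of coding sequence, 5′ to 3′, with the motif codons in capitals. They show how far the subfamilies have diverged around the same catalytic step, for the genes that carry the results. They were read from the RefSeq TAIR10.1 assembly, a Columbia reference, while the plants were L er.
CESA1, chr4:15641856-15641900 (minus strand): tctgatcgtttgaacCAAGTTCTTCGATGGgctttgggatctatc
CESA6, chr5:25885370-25885414 (plus strand): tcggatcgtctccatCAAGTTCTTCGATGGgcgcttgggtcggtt
CESA7, chr5:5737701-5737745 (minus strand): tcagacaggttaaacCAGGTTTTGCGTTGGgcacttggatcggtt
CSLD5, chr1:595450-595494 (minus strand): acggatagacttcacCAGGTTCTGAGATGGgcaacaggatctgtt
CSLA10, chr1:8517617-8517661 (minus strand): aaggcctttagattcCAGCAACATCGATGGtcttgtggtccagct
CSLA15, chr4:7793610-7793654 (minus strand): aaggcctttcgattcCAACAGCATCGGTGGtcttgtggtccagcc
CSLC5, chr4:15310667-15310711 (minus strand): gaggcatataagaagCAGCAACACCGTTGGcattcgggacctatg
CSLC12, chr4:4803445-4803489 (minus strand): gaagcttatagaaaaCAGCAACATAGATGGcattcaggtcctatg
CSLB3, chr2:13812499-13812543 (plus strand): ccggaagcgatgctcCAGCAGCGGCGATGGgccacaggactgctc
CSLE1, chr1:20878567-20878611 (plus strand): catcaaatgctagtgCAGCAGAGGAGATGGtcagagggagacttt
CSLG2, chr4:12464710-12464754 (plus strand): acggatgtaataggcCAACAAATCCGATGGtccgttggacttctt

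CESA1 and CESA6 were identical over all 15 motif bases, and CESA6 and CSLD5 over 12 of 15. CSLA10 and CSLC12 matched at 14 of the 15, more than the 10 shared by CESA6 and CSLA10. Within subfamilies, CSLA10 and CSLA15 matched at 12 of the 15, as did CSLC5 and CSLC12. The motif bases alone thus did not separate these subfamilies. Across the whole windows CSLA10 and CSLA15 shared 40 of 45 bases, CSLC5 and CSLC12 shared 35, and CSLA10 and CSLC12 shared 29.

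Read numbers were recovered from the log-likelihood score in the authors' deposited table. They came to 102141163 in the DEX pool and 119057495 in the mock pool. Ratios are log2(DEX/mock) from the authors' deposited table. The value after ± is 1 standard error from the reads alone, so it covers counting error and neither biological spread nor PCR duplication. Levels are reads per kilobase of exon, scaled to library size (RPKM), computed from the recovered reads. Over the 24945 genes with reads in both pools the median log2 ratio was 0.05, and 95.1% of the 19983 genes with at least 200 reads lay within 1.5-fold. The 7 floral organ identity genes used to check the tissue (AP1, AP3, PI, AG, SEP1, SEP2 and SEP3) each had at least 7064 reads in either pool. Their median log2 ratio was -0.11, with 5 lower and 2 higher by the authors' posterior described below and SEP3 the lowest at -0.43 ± 0.018. The RBE gene itself gave 21774 reads in the DEX pool and 28895 in the mock pool (-0.19 ± 0.013). Since the steroid acts on the fusion protein, its transcript level does not check the labels.

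A gene was called at 1.5-fold where the deposited ratio reached that size and the authors' posterior probability of the opposite direction was under 0.05. By this rule 5 of the 38 genes were lower in DEX, which is 13.2% against 2.91% of all genes. Those 5 were CSLA1, CSLA10, CSLA11, CSLA15 and CSLE1. One gene, CSLB3, was higher, which is 2.63% against 4.45% of all genes. By the posterior alone 18 of the 38 were lower, 47.4% against 20.8% of all genes, and 14 were higher, 36.8% against 36.4%. When ratios were recentred on the all-gene median, the authors' posterior no longer applied. It was replaced by a normal probability of the ratio divided by its counting error. The counts were then 21 lower, 55.3% against 29.5% of all genes, and 9 higher, 23.7% against 25.4%. The share called higher was thus near that of the whole table and the share called lower was above it. Of the 18 lower genes 14 were CESA or CSLA genes, subfamilies that hold 10 and 9 of the 38. Among the 19983 genes with at least 200 reads, 41.8% were higher and 24.5% lower by the posterior. Fewer cells of a type and less RNA per cell cannot be told apart in such bulk tissue.

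**Figure D1:**
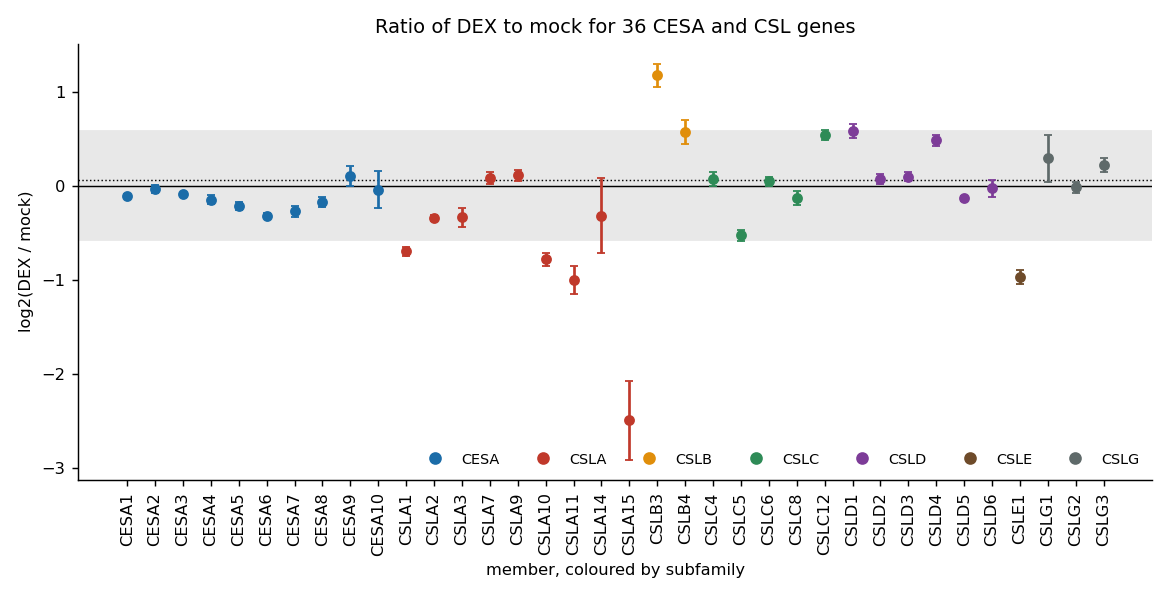
Log2 ratio of DEX to mock for the 36 genes with at least 200 reads, coloured by subfamily. Bars are 95% counting intervals, the dotted line is the median of all genes at 0.05, and the grey band holds the central 95% of genes with at least 200 reads. CSLA15, CSLA11, CSLA10, CSLA1 and CSLE1 lie below the band and CSLB3 above it, while the CESA genes lie between -0.32 and 0.10.

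The CESA genes were the most abundant of the family, and 9 of the 10 had a ratio below 0, with a median of -0.13. Summed over the subfamily, the level was 295.1 RPKM in DEX and 327.2 in mock. By the posterior 8 were lower, against 20.8% of all genes, and none reached 1.5-fold. CESA9 alone was called higher. It lost that call wherever ratios were rescaled or detrended and at a posterior limit of 0.01. It kept the call in the settings that left out genes under 200 reads or genes with a near-identical copy or opposite-strand overlap. The 7 floral organ identity genes had a similar median of -0.11, and their part in the CESA values was not tested.

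The primary-wall genes led in level. CESA3 (AT5G05170, chromosome 5) had 39213 reads in DEX and 48825 in mock, or 100.4 and 107.2 RPKM, the highest level of the family in both pools. Its ratio was -0.10 ± 0.0098. CESA1 (AT4G32410, chromosome 4) had 28810 and 36259 reads, or 66.8 and 72.2 RPKM, and a ratio of -0.11 ± 0.011. Both were slightly lower in DEX, by amounts that exceeded their counting error. These amounts were small beside the spread of ratios among genes with at least 200 reads, whose SD was 0.279. CESA6 (AT5G64740, chromosome 5), the partner of CESA1 and CESA3 in the primary-wall complex, had 16851 reads in DEX and 24547 in mock. Its ratio of -0.32 ± 0.014 was the lowest of the 10 CESA genes. The ratio of CESA6 was below that of CESA1 by -0.21 ± 0.018 and below that of CESA3 by -0.23 ± 0.017, so that CESA6 stood at 0.592 times the RPKM of CESA1 in DEX and 0.685 times in mock. The transcripts for subunits of 1 complex thus did not keep the same proportions in the pools, and protein was not measured.

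The genes that can replace CESA6 were spread out. CESA5 (AT5G09870), its closest relative with 84.5% identity over 3263 aligned exon bases, had 8930 reads in DEX and 12102 in mock and a ratio of -0.22 ± 0.020. CESA2 (AT4G39350) had 8299 and 9944 reads and a ratio of -0.04 ± 0.021. CESA9 (AT2G21770), known from seed coat and embryo, had 1323 and 1440 reads and was the only CESA gene above 0, at 0.10 ± 0.055. The closest relatives CESA5 and CESA6 were therefore the lowest of this class, and CESA2 and CESA9, also nearest to each other in sequence at 83.6% identity, were the highest. CESA10 (AT2G25540), nearest to CESA1, was rare, with 388 and 466 reads, and its ratio of -0.04 ± 0.099 was not called in either direction.

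The secondary-wall genes were at intermediate levels. CESA4 (AT5G44030) had 7477 reads in DEX and 9663 in mock and a ratio of -0.15 ± 0.022. CESA7 (AT5G17420) had 4123 and 5815 reads and a ratio of -0.27 ± 0.029. CESA8 (AT4G18780) had 4280 and 5635 reads and a ratio of -0.18 ± 0.029. All 3 were lower in DEX, and their summed level was 43.8 RPKM against 50.0 in mock. The exons of CESA8 overlap those of AT4G18770 on the other strand by 481 bases, but that gene had 113 reads in all. Smaller overlaps of 28 to 89 bases touched CESA1, CESA3, CESA4, CESA7 and CESA10, whose partners had 8277, 3749, 7715, 7820 and 4582 reads in that order. The partner of CESA10 thus had more reads than CESA10 itself with 854, and whether the libraries kept strand was not given.

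Genes that act beside CESA proteins were read from lists chosen with earlier results of these data known. Of 12 genes for proteins that act with the cellulose synthase complex, 7 were lower and 1 was higher by the posterior. Over all genes those shares were 20.8% and 36.4%. The median of the 12 was -0.08, and none passed 1.5-fold. KOR1 (AT5G49720), the membrane endoglucanase of the complex, was at -0.18 ± 0.012, and CSI1 (AT2G22125), which ties complexes to microtubules, at -0.07 ± 0.013. THE1 (AT5G54380), a receptor kinase that senses cellulose defects, had 4179 reads in DEX and 6201 in mock and a ratio of -0.35 ± 0.029. CSI2 (AT1G44120), a relative of CSI1, had the largest ratio of the list by size, 0.56 ± 0.17, from only 279 reads over both pools (156 in DEX and 123 in mock), and it overlaps another gene on the other strand, as do KOR1 and CSI1.

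Beside CESA4, CESA7 and CESA8, 12 of 19 measured genes of the secondary wall and xylem were lower and 1 was higher by the posterior. Over all genes those shares were 20.8% and 36.4%. The median of the 19 was -0.22. Their summed level was 194.9 RPKM in DEX and 225.4 in mock. The largest ratio by size among those with 200 reads belonged to VND6 (AT5G62380), a regulator of xylem vessels, with 177 reads in DEX and 306 in mock and a ratio of -0.57 ± 0.14. VND6 overlaps AT5G62390 on the other strand. LAC4 (AT2G38080), a laccase of lignification, had 9135 and 13033 reads and a ratio of -0.29 ± 0.020. NST3 (AT1G32770), a regulator of fibre walls, was at 0 reads in DEX and 2 in mock. The secondary-wall CESA genes thus stood in the same range as these markers, whose part in the CESA values was not tested.

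**Figure D2:**
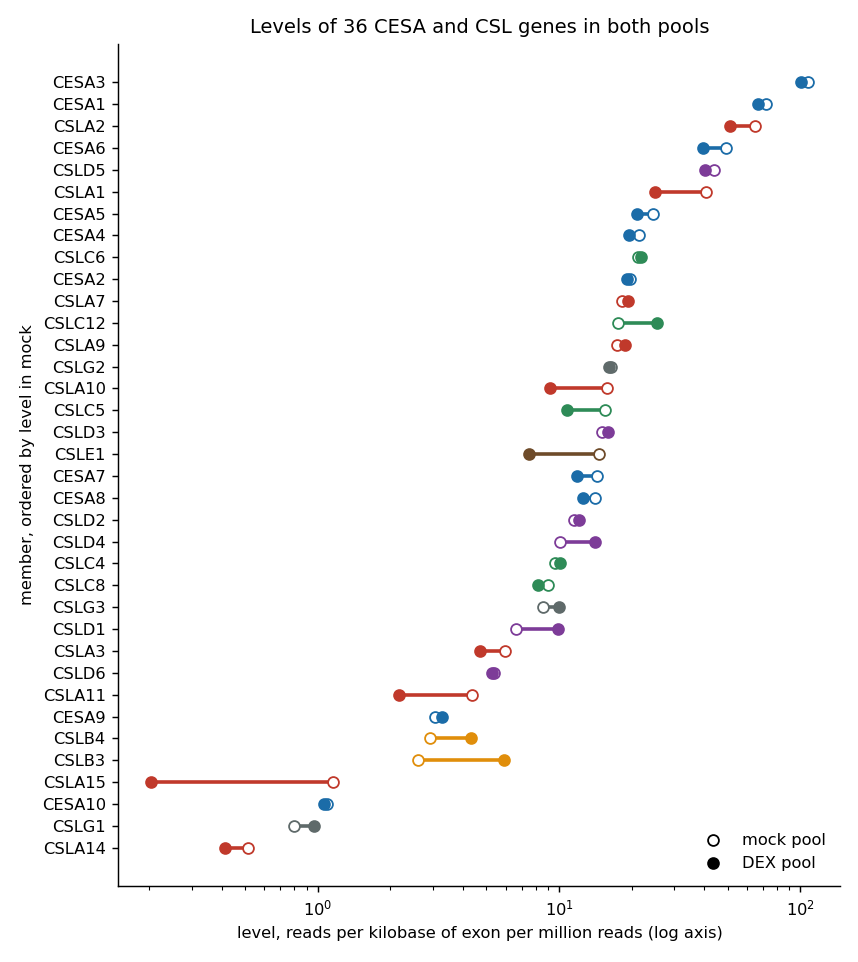
Level of the 36 genes with at least 200 reads in the mock pool (open) and the DEX pool (filled), in RPKM on a log axis, ordered by the level in mock and coloured by subfamily. CESA3 is highest at 107.2 RPKM in mock, and the longest lines belong to CSLA15, CSLB3, CSLA11 and CSLE1.

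The CSLA genes, which encode mannan synthases, held 4 of the 5 members called lower at 1.5-fold. The subfamily median was -0.34, and its summed level was 130.9 RPKM in DEX and 169.1 in mock. By the posterior 6 of the 9 were lower and 2 were higher, against 20.8% and 36.4% of all genes.

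CSLA15 (AT4G13410, chromosome 4, 7792016 to 7796041, minus strand) had 52 reads in DEX and 345 in mock, or 0.204 and 1.15 RPKM. Its ratio of -2.50 ± 0.21 was the second lowest of the 19983 genes with at least 200 reads. The fold was 5.65 lower in DEX, and the counting interval of DEX over mock ran from 0.132 to 0.237. CSLA11 (AT5G16190, chromosome 5) had 504 reads in DEX and 1180 in mock and a ratio of -1.01 ± 0.077. Both genes were rare in buds, which leaves wide counting intervals but places the DEX level far below the mock level.

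CSLA10 (AT1G24070, chromosome 1) was better covered, with 2444 reads in DEX and 4913 in mock, or 9.18 and 15.8 RPKM. Its ratio was -0.79 ± 0.036. CSLA1 (AT4G16590, chromosome 4) had 4725 and 8954 reads, or 25.1 and 40.8 RPKM, and a ratio of -0.70 ± 0.026. In these more abundant genes the counting error was a small part of the difference. The 4 genes together summed to 36.7 RPKM in DEX and 62.2 in mock.

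These 4 genes were also the most alike in exon sequence, an observation made after their ratios were seen. Their 6 pairs had 78.2% to 83.9% identity over 578 to 941 aligned bases. The other 30 CSLA pairs had 67.8% to 76.0%. The genes lie on chromosomes 1, 4 and 5 and none has a near-identical copy, at 95% identity over 100 bases, to which reads could have gone.

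The other 5 CSLA genes had ratios between -0.34 and 0.11. CSLA2 (AT5G22740, chromosome 5), known for stem and seed glucomannan, was the most abundant with 13672 reads in DEX and 20221 in mock, or 51.1 and 64.9 RPKM. Its ratio of -0.34 ± 0.016 was called lower by the posterior but did not reach 1.5-fold. CSLA3 (AT1G23480) had 1331 and 1959 reads and a similar ratio of -0.34 ± 0.051. CSLA9 (AT5G03760), the main glucomannan synthase of stems, had 4659 and 5038 reads and a ratio of 0.11 ± 0.029. CSLA7 (AT2G35650), needed in pollen tubes and embryos, had 4294 and 4737 reads and a ratio of 0.08 ± 0.030. CSLA9 and CSLA10 had nearly equal levels in mock, with 0.910 times as much CSLA10, but CSLA10 was at 0.489 times the CSLA9 level in DEX. CSLA14 (AT3G56000) had 84 and 123 reads, and its ratio of -0.32 ± 0.20 was not called.

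Among 4 partners of mannan synthesis, 3 were lower by the posterior and none was higher, against 20.8% and 36.4% of all genes. The median of the 4 was -0.06. MSR1 (AT3G21190), which promotes mannan synthesis together with CSLA proteins, had 3259 reads in DEX and 6348 in mock. Its ratio of -0.74 ± 0.031 was in the range of CSLA1 and CSLA10, and it was the only gene of any list called at 1.5-fold. It overlaps AT3G21180 on the other strand. Its relative MSR2 (AT1G51630), which also has such an overlap, was at -0.07 ± 0.028, and VTC1 (AT2G39770), which makes the sugar nucleotide GDP-mannose, was at -0.05 ± 0.014.

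**Figure D3:**
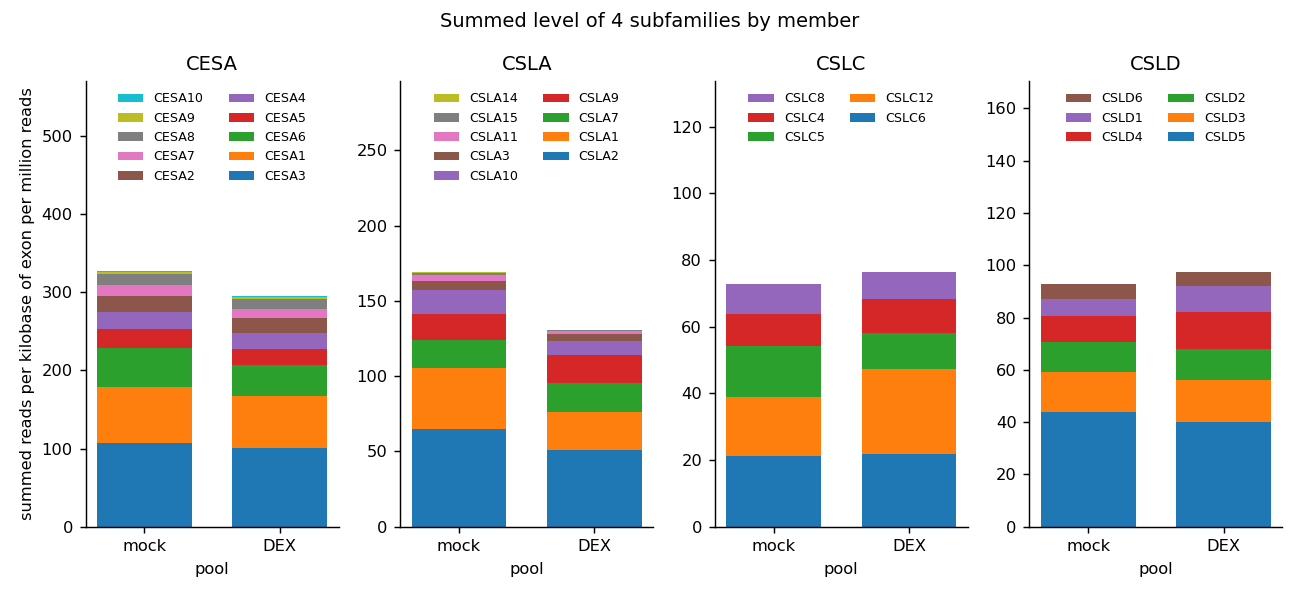
Summed level in RPKM of the CESA, CSLA, CSLC and CSLD subfamilies in the mock and DEX pools, with bars from 0 split by member and a separate axis for each subfamily. The CSLA sum is 169.1 in mock and 130.9 in DEX, while the CSLC sum is 73.0 and 76.4 with a larger CSLC12 part and a smaller CSLC5 part in DEX.

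The CSLC genes, which encode the xyloglucan glucan synthases, differed more in their makeup than in their sum. The summed level was 76.4 RPKM in DEX and 73.0 in mock. CSLC12 (AT4G07960, chromosome 4) had 7389 reads in DEX and 5936 in mock, or 25.5 and 17.6 RPKM, and a ratio of 0.54 ± 0.025. CSLC5 (AT4G31590, chromosome 4) had 3419 and 5753 reads, or 10.8 and 15.5 RPKM, and a ratio of -0.53 ± 0.031. The pair thus stood on opposite sides of 0, with a difference in log2 ratio of 1.07 ± 0.040. The counting interval of this difference ran from 0.99 to 1.15. These were the highest and lowest ratios of the 5 CSLC genes, and the interval does not allow for the choice of such a pair. CSLC12 was at 1.13 times the level of CSLC5 in mock and at 2.37 times in DEX. Its share of the CSLC sum was 24.1% in mock and 33.3% in DEX, while that of CSLC5 was 21.3% and 14.1%. Neither gene reached 1.5-fold alone, at 1.45 and 1.44.

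The other CSLC genes differed little. CSLC6 (AT3G07330) had 6245 reads in DEX and 7064 in mock and a ratio of 0.04 ± 0.025, which became -0.010 after recentring on the all-gene median. CSLC4 (AT3G28180), the best studied of the glucan synthases, had 2690 and 2988 reads and a ratio of 0.07 ± 0.038. CSLC8 (AT2G24630), the closest relative of CSLC5 with 80.3% identity over 2656 bases, had 2561 and 3282 reads and a ratio of -0.14 ± 0.038. CSLC5 and CSLC8 were the only CSLC genes called lower. Among 7 genes for xyloglucan side chains 4 were higher and 2 lower by the posterior, against 36.4% and 20.8% of all genes. The median of the 7 was 0.06. The largest by size was XLT2 (AT5G62220), a galactosyltransferase, at -0.25 ± 0.038. The xylosyltransferase genes XXT1 (AT3G62720) and XXT2 (AT4G02500) had opposite signs, 0.15 ± 0.036 and -0.17 ± 0.019.

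In the CSLD subfamily the genes of pollen stood apart from the rest. CSLD1 (AT2G33100, chromosome 2), needed for pollen tube walls, had 3475 reads in DEX and 2710 in mock and a ratio of 0.58 ± 0.037. CSLD4 (AT4G38190, chromosome 4), which acts with CSLD1 in pollen tubes, had 5373 and 4485 reads and a ratio of 0.48 ± 0.029. Both were higher in DEX, and CSLD1 at 1.495-fold was just under the 1.5-fold limit. CSLD5 (AT1G02730), which works at forming cell plates, was the most abundant with 16074 and 20591 reads, or 40.1 and 44.1 RPKM, and was slightly lower in DEX at -0.14 ± 0.015.

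CSLD3 (AT3G03050), which makes cellulose-like glucan at root hair tips, had 7008 and 7659 reads and a ratio of 0.09 ± 0.024. CSLD2 (AT5G16910), its close relative at 82.3% identity, had 5538 and 6162 reads and a ratio of 0.07 ± 0.027. CSLD6 (AT1G32180) had 1788 and 2125 reads and was not called, at -0.03 ± 0.046. These 3 genes lay near the median of all genes.

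Markers of the cells in which CSLD genes act were set beside these values. Of 6 late pollen genes 5 were higher and 1 was lower by the posterior, against 36.4% and 20.8% of all genes. Their median was 0.32, and their summed level was 796.1 RPKM in DEX and 639.3 in mock. The largest ratio belonged to ANX2 (AT5G28680), a receptor kinase of the pollen tube, with 4847 reads in DEX and 3779 in mock and a ratio of 0.58 ± 0.031. PPME1 (AT1G69940), a pectin methylesterase of pollen, was the one lower gene at -0.28 ± 0.027. CSLD1 and CSLD4 stood at the upper end of the late pollen genes. CSLD1 was level with ANX2, and CSLD4 was above all the others, of which VGD1 (AT2G47040) was highest at 0.37. The part of these markers in the CSLD1 and CSLD4 values was not tested. Of 8 cell-division genes 4 were lower and none was higher by the posterior, against 20.8% and 36.4% of all genes. Their median was -0.06. PLE (AT5G51600), which bundles microtubules at the division plane, had the largest ratio by size, -0.10 ± 0.026. CSLD5 was below all 8 of these, which ranged from -0.10 to 0.04.

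**Figure D4:**
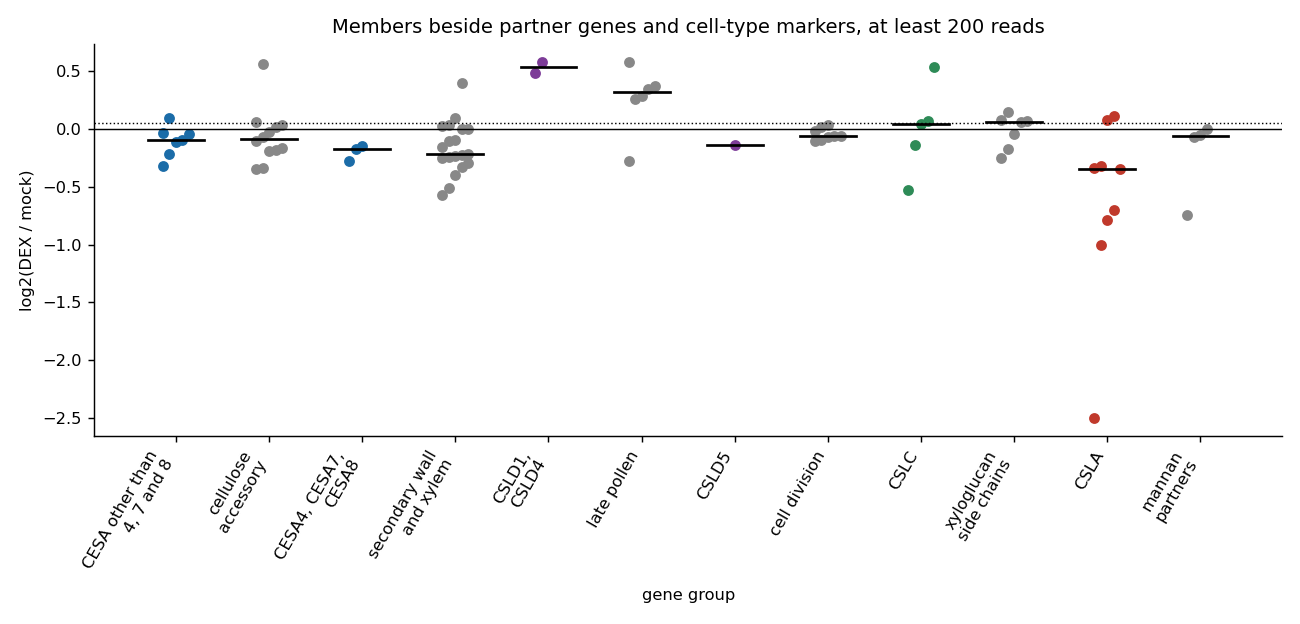
Log2 ratio of DEX to mock for members (coloured) beside genes of partner proteins and cell-type markers (grey), for genes with at least 200 reads. Horizontal bars are group medians and the dotted line is the median of all genes. CSLD1 and CSLD4 lie at the upper end of the late pollen genes, and MSR1 at -0.74 is the lowest of the mannan partners.

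The CSLB genes, not tied to a known polysaccharide in Arabidopsis, were rare. CSLB3 (AT2G32530, chromosome 2, 13809019 to 13813572, plus strand) had 1575 reads in DEX and 815 in mock, or 5.89 and 2.61 RPKM. Its ratio of 1.17 ± 0.062 was the 67th highest of the 19983 genes with at least 200 reads, and the fold of 2.25 had a counting interval from 2.07 to 2.45. CSLB4 (AT2G32540) starts 970 bases past the end of CSLB3 on the same strand. It had 1120 reads in DEX and 880 in mock and a ratio of 0.57 ± 0.065, a fold of 1.485. These tandem neighbours were thus both higher in DEX, and CSLB3 exceeded CSLB4 by 0.60 ± 0.090. The pair had 88.3% identity over 2339 bases and an identical run of 88 bases at most, so reads within such runs could have been assigned to either gene.

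The remaining CSLB genes were hardly detected. CSLB1 (AT2G32610) had 10 reads in DEX and 16 in mock, and CSLB2 (AT2G32620) had 1 read in each. The table lists CSLB5 (AT4G15290) at 0 in both pools, and CSLB6 (AT4G15320) had 1 read in mock alone. A count of 0 allows up to 3 reads, so no difference was detectable at this depth. CSLB5 and CSLB6 share an identical run of 248 bases, which makes their counts uncertain. CSLB1 and CSLB2 lie 17706 bases past CSLB4, and nearly all reads of that cluster came from its CSLB3 and CSLB4 end.

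CSLE1 (AT1G55850, chromosome 1, 20876440 to 20879482, plus strand), the sole CSLE gene of the species, had 1965 reads in DEX and 4492 in mock, or 7.49 and 14.7 RPKM. Its ratio was -0.97 ± 0.039, 1.96-fold lower, with a counting interval of DEX over mock from 0.484 to 0.538. The gene had no near-identical copy and no annotated overlap on the other strand. It was the only member outside the CSLA group called lower at 1.5-fold.

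The CSLG genes form a tandem cluster on chromosome 4 in the order CSLG3, CSLG2, CSLG1. Relatives in soybean and spinach act in saponin synthesis. CSLG2 (AT4G24000) had 4493 reads in DEX and 5308 in mock and was not called, at -0.02 ± 0.029. CSLG3 (AT4G23990), 1153 bases upstream of it, had 2900 and 2902 reads, or 10.0 and 8.61 RPKM, and a ratio of 0.22 ± 0.038. CSLG1 (AT4G24010) had 261 and 250 reads and a ratio of 0.29 ± 0.13, and it overlaps AT4G24015 (986 reads) by 103 exon bases on the other strand. In this cluster the neighbours did not share a ratio, since CSLG3 exceeded CSLG2 by 0.24 ± 0.048.

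**Figure D5:**
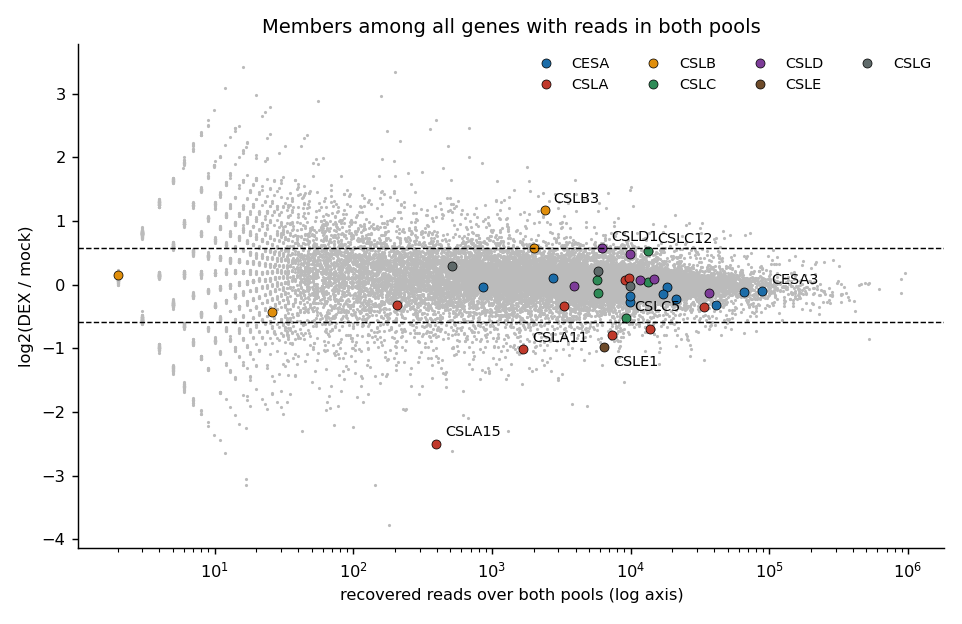
Log2 ratio of DEX to mock against recovered reads over both pools (log axis) for the 24945 genes with reads in both pools (grey), with the 38 members coloured by subfamily. Dashed lines mark 1.5-fold. CSLA15 lies below nearly all genes of its depth, and CESA3 is at the right with 88038 reads.

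The 250 bases before each annotated gene start were searched on both strands for TATAAA, the letters of the TATA box. They were also searched for GGNCCC, the core bound by TCP growth regulators. These motifs were chosen with the ratios known. Matches were counted on either strand and at any position, so no match to the first motif was shown to be a TATA box. Such matches start at -201, -174 and -144 in CESA5 and at -225 and -111 in CSLC5. TATAAA was found in 43.6% of the 39 member promoters searched and in 47.7% of 28007 promoters. GGNCCC was found in 6 members, 15.4%, against 7.29% of all promoters. The 6 were CESA2, CESA5, CESA6, CSLC5, CSLC8 and CSLD5, and all 6 were among the 18 members called lower by the posterior, with a median of -0.18. Of the 31 measured members searched that lack GGNCCC, 11 were lower by the posterior and 14 higher. At 1.5-fold 4 of those 31 were lower, and none of the 6 with the motif was. Over the whole table, 23.0% of the 1872 measured genes with the motif were lower by the posterior and 20.7% of the 22876 without it, and 38.6% and 36.3% were higher. The shares with and without the motif were thus close over the whole table, and a match is a description of these letters alone. CESA5 and CESA6 have 2 overlapping matches each, starting at -62 and -61 in CESA5 and at -69 and -68 in CESA6.

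Promoters are shown for 3 of the genes with GGNCCC and for CSLA15 and CSLB3, which had the extreme ratios and lack it. Each is read 5′ to 3′ on the strand of the gene and ends at the base before the annotated start, in TAIR10.1 coordinates, with matches to either motif in capitals.
CESA5, chr5:3072620-3072869 (plus strand): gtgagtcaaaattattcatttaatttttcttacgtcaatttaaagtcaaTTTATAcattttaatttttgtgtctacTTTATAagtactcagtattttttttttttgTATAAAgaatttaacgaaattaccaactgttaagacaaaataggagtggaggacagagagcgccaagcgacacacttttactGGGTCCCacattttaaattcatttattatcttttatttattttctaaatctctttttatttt
CESA6, chr5:25880783-25881032 (plus strand): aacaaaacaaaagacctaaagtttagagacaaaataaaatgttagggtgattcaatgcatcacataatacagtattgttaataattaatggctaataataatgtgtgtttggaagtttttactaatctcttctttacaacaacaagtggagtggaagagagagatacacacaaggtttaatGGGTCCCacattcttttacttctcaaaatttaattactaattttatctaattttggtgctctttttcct
CSLC5, chr4:15312988-15313237 (minus strand): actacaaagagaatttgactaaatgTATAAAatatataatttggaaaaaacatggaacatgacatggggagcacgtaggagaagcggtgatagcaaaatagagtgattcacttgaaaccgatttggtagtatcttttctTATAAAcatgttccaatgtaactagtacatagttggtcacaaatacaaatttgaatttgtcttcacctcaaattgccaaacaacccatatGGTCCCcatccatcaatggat
CSLA15, chr4:7796042-7796291 (minus strand): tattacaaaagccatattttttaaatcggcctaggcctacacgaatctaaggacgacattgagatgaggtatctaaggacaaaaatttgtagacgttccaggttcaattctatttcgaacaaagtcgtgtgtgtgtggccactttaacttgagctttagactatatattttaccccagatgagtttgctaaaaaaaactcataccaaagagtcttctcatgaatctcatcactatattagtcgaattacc
CSLB3, chr2:13808769-13809018 (plus strand): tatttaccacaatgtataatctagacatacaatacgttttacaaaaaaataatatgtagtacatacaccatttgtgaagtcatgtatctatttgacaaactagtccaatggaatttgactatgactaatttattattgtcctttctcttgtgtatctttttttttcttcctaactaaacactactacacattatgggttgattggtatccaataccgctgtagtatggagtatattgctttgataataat

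The GGNCCC match of CSLC5 starts at -21, close to the annotated start. In CSLC8 and CSLD5 the match starts at -190 and -160. CSLC12, whose ratio was opposite to that of CSLC5, has no GGNCCC in this window.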

How the data were processed

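Per the labels' protocols, 8 libraries of poly-A RNA were run on an Illumina sequencer. TopHat 1.2.0, HTSeq 0.4.5p6 and the build TAIR10 are named, with no roles, per the submitters' processing notes. Strand, read length and duplicate removal were not given in the sources used here. The authors deposited 1 table in the format of LOX, a program that samples relative expression from reads, per the file headers. It holds for each gene the authors' p-value-like posterior probability of each direction, a ratio per treatment with the lower treatment set to 1, interval half-widths, which are not used for errors here, and a log-likelihood score, as deposited. All values are pooled over the libraries of a treatment, so the count test planned per library had no input. No per-sample column was left unused.

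Reads were recovered by taking the deposited score as N ln(N/T) - N added over the pools, where N is the gene's reads and T the pool's total. The formula was inferred and stands in none of the sources used here. It gave whole reads, within 0.1, for 100% of 908 genes read in 1 pool and for 99.98% of 8294 genes with up to 1000 reads in both. The recovery was also run on simulated data, whose scores were made with the same formula, so that run cannot check the formula. RPKM, errors and calls were computed with Python 3.11.15, NumPy 2.4.6, pandas 2.3.3 and SciPy 1.17.1. Exon lengths, promoters and coding windows came from the RefSeq TAIR10.1 annotation, which matched 28009 of 28775 identifiers and all 40 members, and which may differ from the authors' annotation. Exon sequences were aligned with blastn 2.17.0, with a near-identical copy set at 95% identity over 100 bases.

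The members, 7 gene lists and the motifs were chosen with earlier results of these data known. Values are given for all members, and in full for those called at 1.5-fold, the CESA genes and the best-covered member of each subfamily. From each list the genes called at 1.5-fold are named, otherwise the one with the largest ratio by size and at least 200 reads. KOR1, CSI1, THE1, LAC4, NST3, MSR2, VTC1, XXT1, XXT2, PPME1 and VGD1 were named after their values were seen. Alternatives moved the scaling, the limits, the filter on low reads and a trend on GC content and length. The promoter of 1 member is not reported here.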

Additional observations from a re-analysis of the deposited data

How the results depend on the processing

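No paired analysis was possible because each treatment has 1 pooled value per gene; a replicate block, leaving out replicates and other count normalizations were not run for the same reason. With the median log2 ratio of all genes set to 0 (a shift of -0.05), the members higher by the posterior numbered 9 in place of 14 (23.7% of members and 25.4% of all genes, from 36.8% and 36.4%), the CESA median was -0.18 in place of -0.13, and CSLC6 reversed from 0.04 to -0.010. After a trend on GC content and exonic length was removed, 2 members were higher at 1.5-fold in place of 1, CSLD1 joining CSLB3, against 4.06% of all genes. At a 2-fold limit, which has no counterpart for the posterior alone, 2 members, CSLA11 and CSLA15, were lower in place of 5, 5.26% against 0.974% of all genes. Without members that have a near-identical copy or an overlap on the other strand, the CSLG median was 0.10 in place of 0.22, because CSLG1 left. The other counts and subfamily medians stayed within 1.5 times or within their spread under these settings. The same held for totals without the 1% most abundant genes, a posterior limit of 0.01 and a minimum of 200 reads. Changes within that spread included a CSLC median of -0.010 in place of 0.04 and a CSLD median of 0.03 in place of 0.08 after recentring. They also included a CSLB median of 0.87 in place of 0.36 at a minimum of 200 reads. Among single genes, CESA9, CSLC4 and CSLC6 lost their posterior call under 3 of these settings or more. Where ratios were rescaled or detrended, posterior calls and counts used a normal probability from the counting error in place of the authors' posterior. Depth limits CSLB1, CSLB2, CSLB5 and CSLB6, and all errors cover counting alone.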
